A study of Mus musculus with 6 samples.

Results

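A list of 36 genes of myelin and of myelinating oligodendrocytes was followed in whole brains of mice in which Mphosph8 was deleted through Nestin-Cre, beside control brains. The gene encodes MPP8, a subunit of the HUSH complex, which silences genes through trimethylation of histone H3 on lysine 9. The members were chosen by symbol for their known role in myelin, and not by a threshold on these counts. Earlier results of these data were known when they were chosen. All 36 were found among the 54532 gene identifiers of the files, and all 36 were among the 16731 genes with enough counts to be tested. RNA of 6 brains from postnatal day 14 was sequenced, 1 library per brain, all on the C57BL/6J background. The 3 controls were labelled Mphosph8fl/+ Nestin-Cre+ and the 3 mutants Mphosph8fl/fl Nestin-Cre+. Both groups thus carried the Nestin-Cre transgene, which is active in neural progenitors, the source of neurons, astrocytes and oligodendrocytes alike. By these labels the controls were heterozygous, with 1 floxed and 1 wild-type Mphosph8 allele. Each contrast is therefore between homozygous mutants and heterozygous controls. The study's text names the transgene alone for the controls, and the labels were followed here. The study describes the brains as littermates, and the labels do not tie a brain to a litter. In whole tissue the counts do not show which cells had lost the gene. By immunoblot of sorted nuclei from wild-type brains, the study reports MPP8 protein almost only in neurons.

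Oligodendrocytes wrap axons of the central nervous system in myelin, a stack of membrane that is rich in lipid and held together by a small set of abundant proteins. In the mouse brain the sheath is laid down over the first postnatal weeks, roughly from the hindbrain forward, so that a brain at postnatal day 14 holds cells at every step from progenitor to mature sheath. The transcription factor MYRF, the product of Myrf, switches the myelin genes on as a progenitor leaves the cell cycle, and some of these genes are used before others.

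The libraries held 12956880 to 15223424 counts. Levels are given as CPM (a gene's counts as a share of its library) scaled by the trimmed mean of M values (TMM). The deleted gene, measured as a check of the labels, went from 58.4 ± 11.3 to 28.9 ± 3.63 CPM (SD, n = 3). Its log2 fold change was -1.01 ± 0.12 (SE), edgeR adjusted p 0.000158. Control replicate 3 was the one library with counts of Y-linked genes (1338 of Ddx3y, against 0 in the other 5). It held 27 counts of Xist, an RNA of female cells, against 11130 to 17697 in the other 5. By these counts it was male and the other 5 were female, and the labels used here give no sex.

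Before the values, the promoters of 4 members that fell in mutant brains are shown, as the sequence these genes bring to their start sites. Each line holds the 250 bases before the RefSeq start of the gene, 5′ to 3′, from the GRCm38.p6 build, and capitals mark CG dinucleotides. Mog lies at chr17:37023399-37023648, minus strand, Mal at chr2:127656696-127656945, minus strand, Cldn11 at chr3:31149670-31149919, plus strand and Ugt8a at chr3:125938653-125938902, minus strand.
Mog: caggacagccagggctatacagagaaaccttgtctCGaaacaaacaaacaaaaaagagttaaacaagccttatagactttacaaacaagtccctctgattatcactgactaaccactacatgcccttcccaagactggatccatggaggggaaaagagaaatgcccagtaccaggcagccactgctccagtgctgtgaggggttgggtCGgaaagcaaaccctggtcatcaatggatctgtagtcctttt
Mal: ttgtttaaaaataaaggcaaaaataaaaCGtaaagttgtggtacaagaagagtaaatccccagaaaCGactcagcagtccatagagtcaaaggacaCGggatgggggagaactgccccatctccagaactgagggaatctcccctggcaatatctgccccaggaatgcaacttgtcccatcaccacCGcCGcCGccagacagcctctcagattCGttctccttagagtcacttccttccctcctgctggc
Cldn11: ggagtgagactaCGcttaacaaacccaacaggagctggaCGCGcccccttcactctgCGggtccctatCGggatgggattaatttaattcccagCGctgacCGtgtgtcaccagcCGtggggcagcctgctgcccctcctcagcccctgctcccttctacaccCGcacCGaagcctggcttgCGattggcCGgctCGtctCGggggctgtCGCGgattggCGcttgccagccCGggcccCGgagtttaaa
Ugt8a: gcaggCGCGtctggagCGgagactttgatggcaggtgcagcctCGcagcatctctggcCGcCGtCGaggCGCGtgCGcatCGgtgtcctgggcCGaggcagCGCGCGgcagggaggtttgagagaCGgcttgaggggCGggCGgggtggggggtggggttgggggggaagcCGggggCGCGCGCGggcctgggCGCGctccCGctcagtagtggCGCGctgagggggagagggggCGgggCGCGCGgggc
The sequences differ in kind. The Mog window held 2 CG dinucleotides and the Mal window 7, whereas Cldn11 had 19 and Ugt8a 32. Across the 26 members with a RefSeq promoter the count ran from 2 to 32 with a median of 9, against a median of 6 over all 32851 promoters in the table. Trf and Fa2h, the other members that fell, had no entry in it.

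SOX10 and MYRF are the factors best known for binding at myelin genes, so short forms of their motifs were looked for on both strands of the same windows. ACAAAG, the core of a SOX motif, was in 5 of the 26 member promoters (19.2%) and in 16.5% of all promoters. CTGGCAC, a form of the MYRF motif, was in 4 (15.4%) and in 4.2% of all promoters. Neither string contains the other. Mag and Cnp held both, Lpar1 and Hapln2 held the second alone, and Mobp, Gjb1 and Opalin the first alone. Mag, at chr7:30914864-30915113, minus strand, is printed with both matches in capitals, the SOX core being on the opposite strand.
Mag: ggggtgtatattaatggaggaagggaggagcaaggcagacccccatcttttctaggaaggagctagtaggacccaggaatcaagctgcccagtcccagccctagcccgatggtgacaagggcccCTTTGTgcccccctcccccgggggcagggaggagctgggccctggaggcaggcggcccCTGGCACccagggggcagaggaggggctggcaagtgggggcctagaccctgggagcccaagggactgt
None of the windows of Mog, Mal, Cldn11 and Ugt8a held either string. The strings are short, the windows leave out distal enhancers, and a match does not show binding.

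Most myelin genes were lower in the mutant brains, by a modest amount. Of the 36 members, 34 had a negative log2 fold change and 2, Car2 and Aspa, a positive one. The median was -0.34, and the median over all genes tested was -0.01. For 23 members every mutant library was below every control library, a pattern found in 5.42% of all genes tested. At an unadjusted p under 0.05, 28 members were lower and 0 higher, where 2.41% of all genes tested were lower. Every member averaged at least 10 CPM in the controls, as did 10753 of the genes tested. Among those 10753, 57.4% were negative, 649 had every mutant below every control, and 316 were lower at an unadjusted p under 0.05. At an adjusted p under 0.05, Trf, Fa2h, Mal, Mog, Ugt8a and Cldn11 fell, 6 members against 0.0956% of all genes tested. None of the 36 passed the 2-fold limit that the study applied as well, which Mphosph8 alone passed among genes that were lower (0.00598% of those tested). Because the members were chosen with earlier results known, these shares describe the list and do not test it.

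Apart from Trf, the calls at an adjusted p depended on single libraries, while the median of the members stayed negative in every fit. Without control replicates 1, 2 or 3 the adjusted p was under 0.05 for 1, 1 and 4 members, and without mutant replicates 1, 2 or 3 for 13, 2 and 1. Trf was among them in all 6 fits. The members lower at an unadjusted p numbered 19 without mutant replicate 3 and between 23 and 30 in the other 5 fits. Their median log2 fold change was -0.26 without mutant replicate 3 and between -0.40 and -0.30 in the others. In whole-brain RNA, fewer oligodendrocytes and less myelin RNA in each of them cannot be told apart. Genes of hindbrain position (median -0.53) and of choroid plexus (median -0.18) also read lower in the mutants, as given with the marker lists, and their part in the myelin values was not tested.

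**Figure D1:**
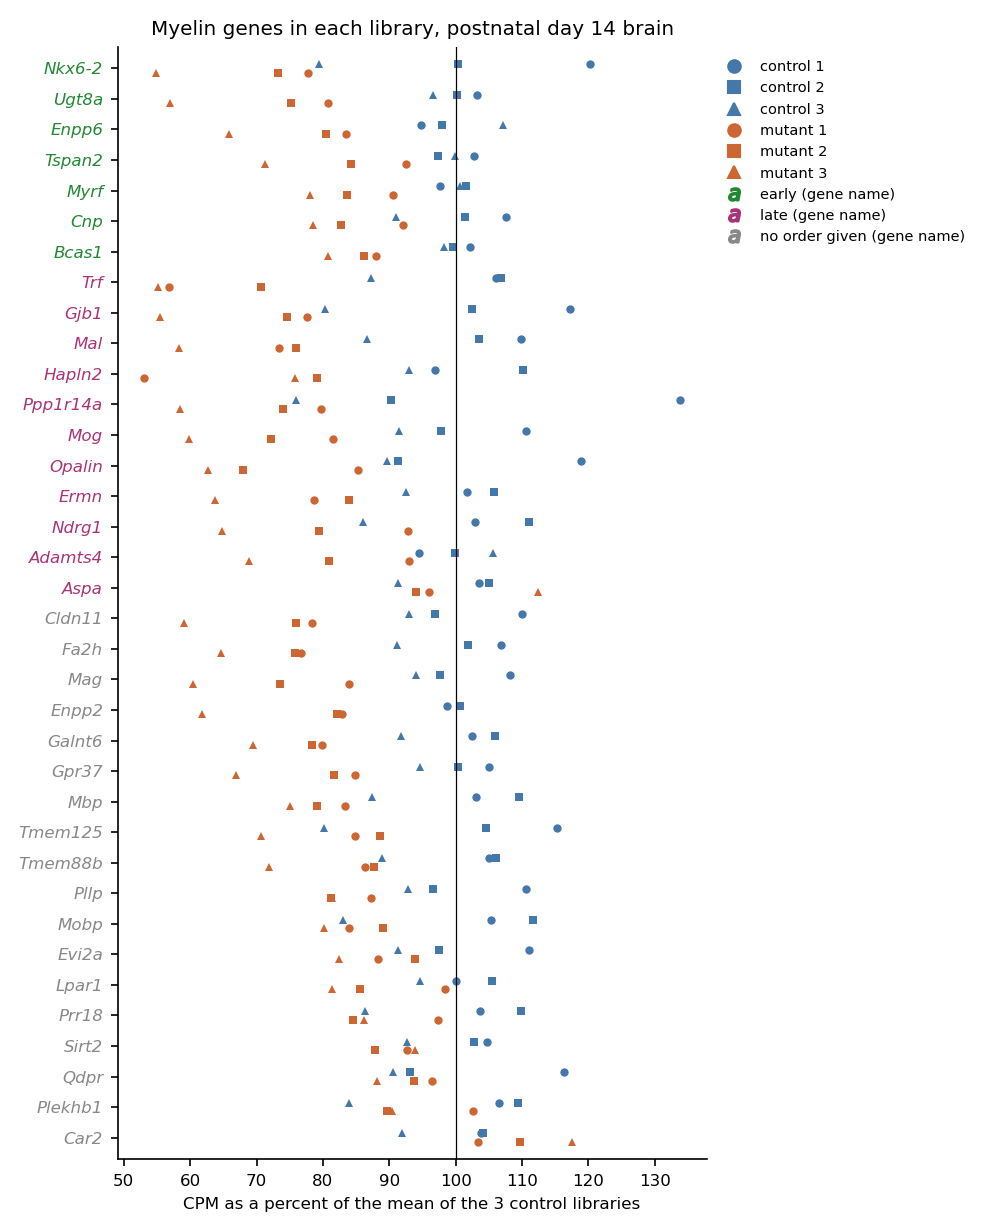
Level of each of the 36 myelin genes in each library, in CPM as a percent of the mean of the 3 control libraries, with symbols for replicates 1, 2 and 3 and gene names coloured by timing class. Mutant replicate 3 is the lowest library for 29 genes and control replicate 3 the lowest control for 31.

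The libraries were ordered alike across members. Control replicate 1 was the highest of the 6 for 19 members and control replicate 2 for 12. Control replicate 3 was the lowest control for 31 members, and mutant replicate 3 the lowest of all libraries for 29. Summed over the members, the level was 22811, 23396 and 19506 CPM in the controls and 18515, 17748 and 16338 CPM in the mutants. The groups did not overlap, and control replicate 3 and mutant replicate 1 lay closest across the divide. The members thus made up 2.19 ± 0.210% of control and 1.75 ± 0.110% of mutant counts (SD, n = 3). Without Mbp, which alone took between 0.907% and 1.33% of a library, the mutant sum was 0.812 times the control sum, against 0.801 with it. Without control replicate 3, the library with Y-linked counts, 35 of 36 members were negative, with a median of -0.40.

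Among the proteins of the sheath, 13 of 13 members were lower at an unadjusted p under 0.05, with a median log2 fold change of -0.46. Mal, Mog and Cldn11 fell at an adjusted p under 0.05. Mal (ENSMUSG00000027375, chromosome 2, 127633226 to 127656695, minus strand, GRCm38) encodes a small tetraspan proteolipid that helps sort membrane to the sheath. It read 426, 401 and 336 CPM in the controls and 284, 294 and 226 CPM in the mutants, with no overlap, at -0.53 ± 0.11 (SE), edgeR adjusted p 0.0241. Mog (ENSMUSG00000076439, chromosome 17, 37010743 to 37023398, minus strand) encodes a glycoprotein of the outermost surface of myelin, and read 277, 245 and 229 CPM in the controls and 204, 181 and 149.99 CPM in the mutants. Its lowest control was above its highest mutant, at -0.49 ± 0.10 (SE), edgeR adjusted p 0.0351. Cldn11 (ENSMUSG00000037625, chromosome 3, 31149920 to 31164324, plus strand), whose claudin forms the tight junctions between myelin turns, read 752, 663 and 636 CPM in the controls and 536, 519 and 404 CPM in the mutants. The difference of -0.49 ± 0.11 (SE), edgeR adjusted p 0.0496 was just inside the threshold, and the adjusted p was 0.0534 with RLE size factors. When any of control replicates 1 and 2 or mutant replicate 3 was left out, each of the 3 genes had an adjusted p above 0.05, from 0.105 to 0.363. Mog and Cldn11 were also above it without control replicate 3 (0.055 and 0.0807) and mutant replicate 2 (0.137 and 0.102).

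Mbp and Mobp encode the basic proteins that join the cytoplasmic faces of compact myelin. Per kilobase of exon, Mbp had the highest control level of all members, 1428 CPM, followed by Cldn11 with 366 and Mobp with 364. Mbp read 12454, 13248 and 10572 CPM in the controls and 10073, 9563 and 9066 CPM in the mutants, lower in every mutant, with a log2 fold change of -0.34 ± 0.12 (SE), edgeR adjusted p 0.471. DESeq2, on the same counts, gave it -0.34 with an adjusted p of 0.0256. Mobp read 2623, 2781 and 2069.9 CPM in the controls and 2091, 2218 and 1997 CPM in the mutants, and the groups overlapped because control replicate 3 was below mutant replicates 1 and 2. Its value was -0.25 ± 0.12 (SE), edgeR adjusted p 0.763, and -0.16 without control replicate 2.

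The other sheath proteins are adhesion, channel and membrane proteins of the layers around the compact stack. Mag, the adhesion molecule that faces the axon, read 813, 734 and 707 CPM in the controls and 631, 552 and 453 CPM in the mutants, all mutants lower, at -0.46 ± 0.11 (SE), edgeR adjusted p 0.085. Cnp, an abundant enzyme that keeps cytoplasmic channels in myelin open, read 1191, 1123 and 1008 CPM in the controls and 1020.0, 916 and 869.7 CPM in the mutants. Control replicate 3 lay within the mutant range for Cnp, whose log2 fold change was -0.24 ± 0.10 (SE), edgeR adjusted p 0.63. Gjb1, which encodes the gap junction protein connexin 32, read 35.2, 30.8 and 24.1 CPM in the controls and 23.3, 22.4 and 16.6 CPM in the mutants, with -0.53 ± 0.14. Opalin, a transmembrane glycoprotein of oligodendrocytes, read 29.0, 22.3 and 21.9 CPM in the controls and 20.8, 16.6 and 15.3 CPM in the mutants, with -0.48 ± 0.13. In both genes control replicate 1 stood highest and every mutant was below every control. Their edgeR adjusted p was 0.135 and 0.171.

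Ermn encodes ermin, a cytoskeletal protein of the mature sheath. It read 52.5, 54.6 and 47.8 CPM in the controls and 40.6, 43.4 and 32.9 CPM in the mutants, a log2 fold change of -0.41 ± 0.10. Hapln2, whose link protein lies in the matrix at nodes of Ranvier, read 15.9, 18.1 and 15.3 CPM in the controls and 8.72, 13.0 and 12.4 CPM in the mutants, with -0.52 ± 0.14. It was the only member whose lowest library was mutant replicate 1. Tspan2, a tetraspanin of early oligodendrocytes, read 409.8, 388 and 399 CPM in the controls and 369, 336 and 284 CPM in the mutants, with -0.27 ± 0.10, and -0.18 without mutant replicate 3. Pllp, which encodes the proteolipid plasmolipin, read 119.7, 104 and 100.4 CPM in the controls and 94.4, 87.9 and 88.1 CPM in the mutants, with -0.26 ± 0.08, and 54.2% of its exonic bases lie opposite exons of another gene. All 4 had every mutant below every control, with edgeR adjusted p from 0.11 to 0.433.

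**Figure D2:**
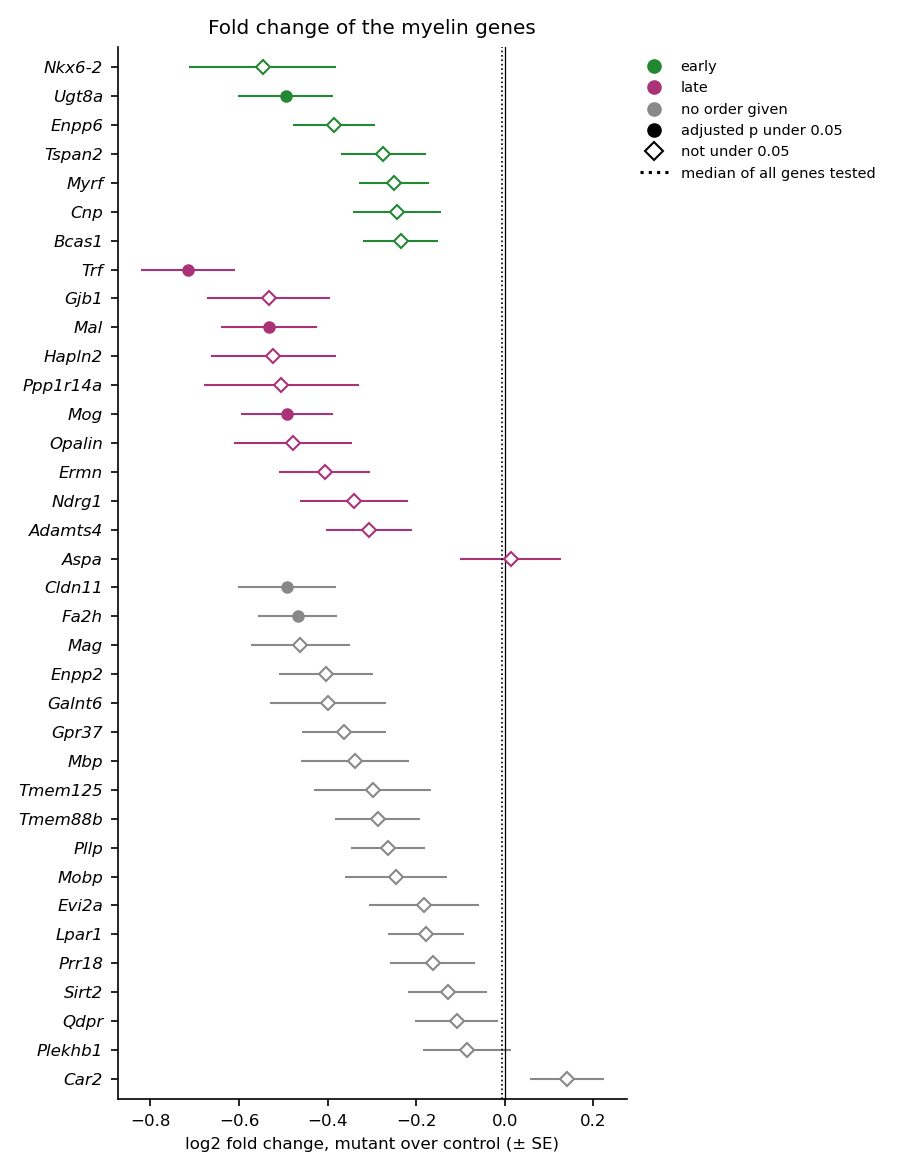
Log2 fold change of mutant over control for each of the 36 myelin genes with its SE from edgeR, coloured by timing class, where filled circles have an adjusted p under 0.05. The values run from -0.72 for Trf to 0.14 for Car2, and the dotted line marks the median of all genes tested, -0.01.

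Enzymes and the iron carrier were mixed. Of these 11 members, 7 were lower at an unadjusted p under 0.05, and the median log2 fold change was -0.39. Trf, which encodes transferrin (ENSMUSG00000032554, chromosome 9, 103204001 to 103230444, minus strand), had the most negative value of all members. It read 68.4, 68.9 and 56.3 CPM in the controls and 36.7, 45.6 and 35.6 CPM in the mutants, 39.1% lower in the mutants, at -0.72 ± 0.11 (SE), edgeR adjusted p 0.0013. The adjusted p stayed under 0.05 in each fit that left out a library. Choroid plexus also makes transferrin, and Ttr, the transthyretin gene that marks that tissue, was lower as well, as given with the marker lists. Of Trf's exonic bases 63.5% also belong to a gene annotated on the same strand, so its count is uncertain.

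Ugt8a and Fa2h make the galactolipids of myelin. Ugt8a (ENSMUSG00000032854, chromosome 3, 125865271 to 125938619, minus strand), the galactosyltransferase that completes galactocerebroside, read 360.4, 349.9 and 337 CPM in the controls and 282, 263 and 199 CPM in the mutants. The controls lay within a narrow band and all mutants were below it, at -0.49 ± 0.11 (SE), edgeR adjusted p 0.0395. Fa2h (ENSMUSG00000033579, chromosome 8, 111345135 to 111393824, minus strand), which hydroxylates the fatty acids of these lipids, read 95.8, 91.3 and 81.7 CPM in the controls and 68.7, 67.9 and 57.9 CPM in the mutants, with no overlap. Its log2 fold change was -0.47 ± 0.09 (SE), edgeR adjusted p 0.0156. Both genes were above the threshold when any of control replicates 1 and 2 or mutant replicates 2 and 3 was left out, with adjusted p from 0.0507 to 0.234, and Ugt8a also without control replicate 3 (0.104).

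A pair of secreted or surface phosphodiesterases followed. Enpp2, or autotaxin, which makes lysophosphatidic acid, read 606, 618 and 618 CPM in the controls and 509, 505 and 379.6 CPM in the mutants, with -0.40 ± 0.11 (SE), edgeR adjusted p 0.139. Enpp6, a choline phosphodiesterase that marks oligodendrocytes as they form, read 96.3, 99.5 and 109 CPM in the controls and 84.8, 81.7 and 66.9 CPM in the mutants, with -0.39 ± 0.09 (SE), edgeR adjusted p 0.0794. In both, mutant replicate 3 was well below the other mutants and no library crossed between the groups. The metalloproteinase gene Adamts4 read 103, 109 and 115 CPM in the controls and 101, 88.1 and 75.0 CPM in the mutants, with -0.31 ± 0.10, and -0.20 without mutant replicate 3. Galnt6, which starts O-linked glycans, read 11.9, 12.3 and 10.7 CPM in the controls and 9.28, 9.11 and 8.07 CPM in the mutants, with -0.40 ± 0.13. Both had every mutant below every control and edgeR adjusted p of 0.309 and 0.357.

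Several metabolic genes did not follow the rest. Aspa, whose product aspartoacylase releases acetate from N-acetylaspartate for lipid synthesis, read 17.7, 17.9 and 15.6 CPM in the controls and 16.4, 16.0 and 19.2 CPM in the mutants. The groups overlapped throughout and mutant replicate 3, the lowest library for most members, was the highest here. The difference was 0.01 ± 0.11. Car2, or carbonic anhydrase 2, ran from 143 to 162 CPM in the controls and from 161 to 183 CPM in the mutants. It was at 0.14 ± 0.08 (SE), edgeR adjusted p 0.875, and positive in every alternative fit. Sirt2, a deacetylase, and Qdpr, which recycles tetrahydrobiopterin, had values of -0.13 ± 0.09 and -0.11 ± 0.09 and overlapping groups. The edgeR adjusted p of these 4 genes lay between 0.875 and 0.996, which does not show that their levels were equal in the 2 groups.

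Both transcription factors read lower, and neither passed the adjusted threshold. Myrf, which drives the onset of myelin genes, read 100.1, 104 and 103 CPM in the controls and 92.8, 85.6 and 80.0 CPM in the mutants. The controls differed from each other by little and the mutants were all below them, at -0.25 ± 0.08 (SE), edgeR adjusted p 0.312. Nkx6-2, a homeodomain factor of maturing oligodendrocytes, read 14.8, 12.4 and 9.79 CPM in the controls and 9.60, 9.03 and 6.76 CPM in the mutants. Control replicate 3 was only slightly above mutant replicate 1, and the log2 fold change was -0.55 ± 0.17 (SE), edgeR adjusted p 0.269. Nkx6-2 had the lowest count of any member in a library, 93 in mutant replicate 3, and 12.9% of its exonic bases lie opposite another gene.

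Among 6 receptor and signalling genes, 4 were lower at an unadjusted p under 0.05, with a median of -0.29 for the group. Gpr37, a G protein-coupled receptor of oligodendrocytes, read 66.6, 63.6 and 59.9 CPM in the controls and 53.7, 51.8 and 42.4 CPM in the mutants, with every mutant lower, at -0.36 ± 0.09 (SE), edgeR adjusted p 0.132. Bcas1, a marker of cells that begin to myelinate, read 525, 513 and 506 CPM in the controls and 453, 443 and 416 CPM in the mutants, also without overlap, at -0.23 ± 0.08 (SE), edgeR adjusted p 0.47. Ppp1r14a, an inhibitor of myosin phosphatase, read 22.8, 15.4 and 13.0 CPM in the controls and 13.6, 12.6 and 9.96 CPM in the mutants. Its control spread was wide because of control replicate 1, and control replicate 3 lay below mutant replicate 1. The log2 fold change was -0.50 ± 0.18 with all libraries and -0.23 without control replicate 1. Ndrg1 read 41.2, 44.5 and 34.4 CPM in the controls and 37.2, 31.8 and 26.0 CPM in the mutants, with overlap, at -0.34 ± 0.12, and at -0.22 without mutant replicate 3. Plekhb1, a pleckstrin homology protein, had the value nearest 0 of the group, -0.09 ± 0.10, from 267, 275 and 211 CPM in the controls and 257, 225 and 227 CPM in the mutants. Lpar1, a receptor for the lysophosphatidic acid that autotaxin makes, was at -0.18 ± 0.09, with overlapping groups and an unadjusted p just above 0.05.

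Of the remaining membrane genes, whose roles are less well described, Tmem88b read 72.0, 72.8 and 60.9 CPM in the controls and 59.2, 60.2 and 49.3 CPM in the mutants, without overlap, at -0.29 ± 0.10. Tmem125 read 25.5, 23.1 and 17.8 CPM in the controls and 18.8, 19.6 and 15.6 CPM in the mutants, with control replicate 3 inside the mutant range, at -0.30 ± 0.13, and at -0.18 without control replicate 1. Both were past an unadjusted p of 0.05 and had edgeR adjusted p of 0.384 and 0.71. Prr18, with 67.9, 71.9 and 56.6 CPM in the controls and 63.7, 55.3 and 56.4 CPM in the mutants, and Evi2a, from 11.2 to 15.1 CPM over all libraries, had overlapping groups and values of -0.16 ± 0.10 and -0.18 ± 0.12. Of Evi2a's exonic bases 19.2% belong to another gene on the same strand.

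The size of the difference bore little relation to the level of the gene. Across the 36 members Spearman's rho between the control level per kilobase and the log2 fold change was 0.08, a description over genes that share the same 6 libraries. The gene with the highest level, Mbp, and genes with low levels such as Opalin (8.27 CPM per kilobase) and Hapln2 (6.92) were all lower.

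**Figure D3:**
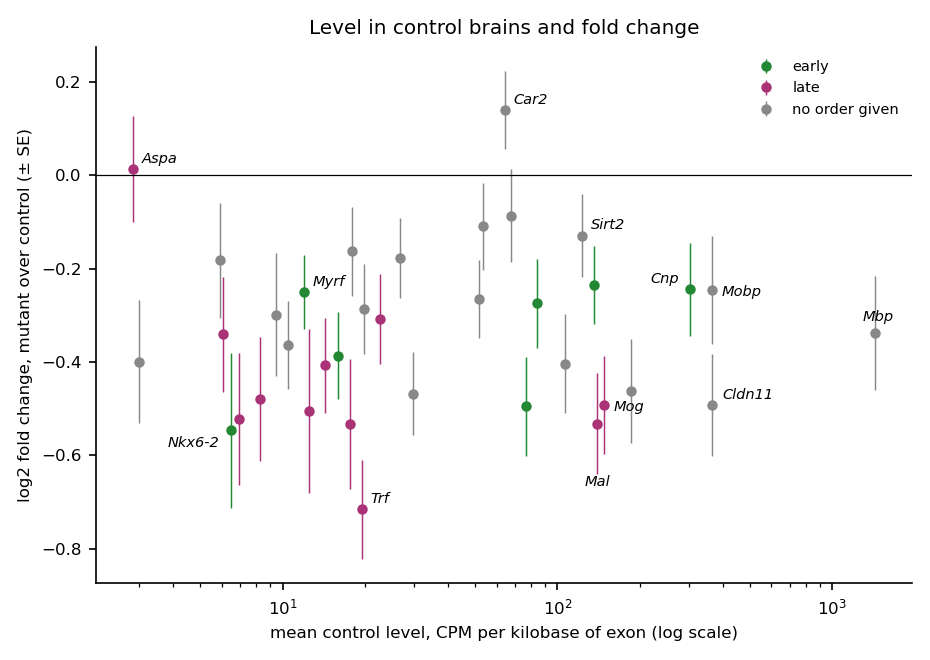
Mean control level of each of the 36 myelin genes in CPM per kilobase of exon (log scale) against its log2 fold change of mutant over control with SE, coloured by timing class. Genes at both ends of the level scale lie below 0, and Car2 and Aspa are the genes above it.

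To see whether genes used early and late in myelination moved to different extents, 7 members that come on in newly formed oligodendrocytes were set beside 11 of the mature sheath. The early genes were Enpp6, Bcas1, Tspan2, Myrf, Nkx6-2, Cnp and Ugt8a, and 7 of 7 were lower at an unadjusted p under 0.05, with a median log2 fold change of -0.27. The late genes were Mog, Opalin, Ermn, Aspa, Hapln2, Ppp1r14a, Gjb1, Trf, Adamts4, Ndrg1 and Mal, of which 10 of 11 were lower, all but Aspa, with a median of -0.49. The median of the late genes was the more negative under each of the 12 alternative fits, all of which reuse the same libraries. The gap ran from 0.13 (without control replicate 1) to 0.25, against 0.22 with all libraries. The classes overlapped gene by gene, since the early genes Nkx6-2 (-0.55) and Ugt8a (-0.49) matched the late ones, and the late gene Adamts4 (-0.31) was near the early median. Nkx6-2, described above as a factor of maturing oligodendrocytes, is an uncertain member of the early class. Of the 18 members placed in neither class, 11 were lower at an unadjusted p under 0.05, with a median of -0.28.

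Per library the contrast depended on how genes were weighted. The late sum was 40.4%, 39.7% and 36.7% of the early sum in the controls and 34.0%, 35.8% and 32.2% in the mutants, with no overlap. Sums are ruled by the genes with most counts, here Mal and Mog against Cnp and Bcas1. When each gene counted equally, as the mean of log2(CPM + 0.5), the late mean minus the early mean was -1.88, -1.91 and -2.05 on the log2 scale in the controls and -2.089, -2.002 and -2.011 in the mutants. The groups then overlapped through control replicate 3, and their means differed by -0.087 (mutant minus control). Taken as the class median in each library against the control mean, mutant minus control was -0.32 for early and -0.44 for late genes. The difference between the classes was not tested, because the classes were chosen with earlier results of these libraries known.

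The early sum went from 2587 ± 113 to 2123 ± 195 CPM and the late sum from 1008 ± 91.7 to 723 ± 91.2 CPM (SD, n = 3), which is 17.9% and 28.3% lower. The 9 progenitor and lineage genes summed to 1845 ± 140 CPM in the controls and 1808 ± 75.4 CPM in the mutants, with overlapping groups and a median log2 fold change of -0.07. The largest part of the sum was Ptprz1, at 658 ± 106 CPM in the controls and 720.7 ± 37.4 CPM in the mutants. It was positive while 6 of the 9 genes were negative, and the overlap of the sums depends on it. Without it every mutant sum lay below every control sum, mutant replicate 1 by little. Ptprz1 was chosen for mention after its values were seen. The progenitor genes Pdgfra, the receptor for platelet-derived growth factor, and Cspg4, a proteoglycan, were at 0.01 ± 0.08 and -0.02 ± 0.10. Gpr17, a receptor of cells committed to differentiate, read 379.8, 407 and 449 CPM in the controls and 385, 348 and 325 CPM in the mutants, at -0.22 ± 0.09 with overlap between groups. Sox10, the factor that oligodendrocytes keep from progenitor to maturity, read 83.1, 70.3 and 70.0 CPM in the controls and 62.5, 60.0 and 59.8 CPM in the mutants, every mutant lower, at -0.29 ± 0.09 (SE), edgeR adjusted p 0.21. Olig1 and Olig2, the lineage factors, were at -0.07 ± 0.09 and -0.15 ± 0.08. None of the 9 was past an adjusted p of 0.05, and 2 were lower at an unadjusted one, against 2.41% of all genes tested.

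Further genes of myelin outside the 36 were read from a list of 20. Of these, 16 were negative, against 52.4% of all genes tested, with a median of -0.23. At an unadjusted p under 0.05, 10 were lower and 1 higher. Of all 16731 genes tested, 404 were lower and 685 higher. Gsn, the actin-severing protein gelsolin, and Nipal4, a membrane transporter gene, were past the threshold, at -0.49 ± 0.11 (SE), edgeR adjusted p 0.0421, and -0.50 ± 0.10 (SE), edgeR adjusted p 0.0322. Cholesterol synthesis supplies much of the sheath's lipid. Of its 14 listed genes 13 were negative, against 52.4% of all genes tested, with a median of -0.14. At an unadjusted p under 0.05, 2 were lower, against 2.41% of all genes tested. None was lower at an adjusted p under 0.05 (smallest edgeR adjusted p 0.681). Their sum was 2232 ± 63.6 CPM in the controls and 2003 ± 181 CPM in the mutants (SD, n = 3), without overlap.

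Markers of brain regions and other cells were read in the same libraries, and 2 lists had a lower sum in every mutant than in every control. Hindbrain position genes, most of them Hox genes, were negative for 12 of 12 members, against 52.4% of all genes tested, with a median log2 fold change of -0.53. At an unadjusted p under 0.05, 2 of the 12 were lower, against 2.41% of all genes tested. For 3 every mutant was below every control, against 5.42% of all genes tested. Their sum was 71.9, 65.7 and 74.1 CPM in the controls and 62.3, 53.6 and 28.8 CPM in the mutants, so the groups did not overlap and mutant replicate 3 was lowest, as it was for most myelin genes. Control replicate 3 was the highest control here, whereas it was the lowest control for 31 myelin members. Most of the sum was Slc6a5, the glycine transporter of brainstem and spinal neurons, which read 46.2, 41.6 and 50.7 CPM in the controls and 39.2, 32.5 and 20.7 CPM in the mutants, at -0.59 ± 0.15 (SE), edgeR adjusted p 0.139, and was chosen for mention after its values were seen. The Hox genes ranged from 0.145 to 5.58 CPM over the libraries, and none of the 12 was past an adjusted p of 0.05. Myelination is ahead in the hindbrain at this age, and the part of tissue makeup in the myelin values was not tested.

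Choroid plexus genes were negative for 6 of 7 members, against 52.4% of all genes tested, with a median of -0.18. At an unadjusted p under 0.05, 1 was lower, against 2.41% of all genes tested. Their sum, most of it Ttr, ranged from 1463 to 1755 CPM in the controls and from 1084 to 1293 CPM in the mutants. Ttr read 1671, 1443 and 1381 CPM in the controls and 1069, 1214 and 1018 CPM in the mutants, at -0.45 ± 0.11 (SE), edgeR adjusted p 0.0764, while the other 6 genes of the list had overlapping groups. Trf, Enpp2 and Car2 are also made by choroid plexus, and the part of that tissue in their values was not tested. Without these 3 genes the median of the myelin members was -0.34, as with them, but leaving out 3 of 36 genes can hardly move a median.

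The other lists overlapped between the groups. Neuron genes summed to 4850 to 5604 CPM over all libraries, with a median log2 fold change of -0.05, astrocyte genes to 7491 to 8981 CPM with 0.06, and microglia genes to 449 to 549 CPM with 0.06. None of these lists held a gene past an adjusted p of 0.05. Schwann cell genes, which would mark attached nerve, summed to 34.4 to 63.7 CPM. The highest sum was that of mutant replicate 1, and the other 5 libraries lay between 34.4 and 43.9 CPM.

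**Figure D4:**
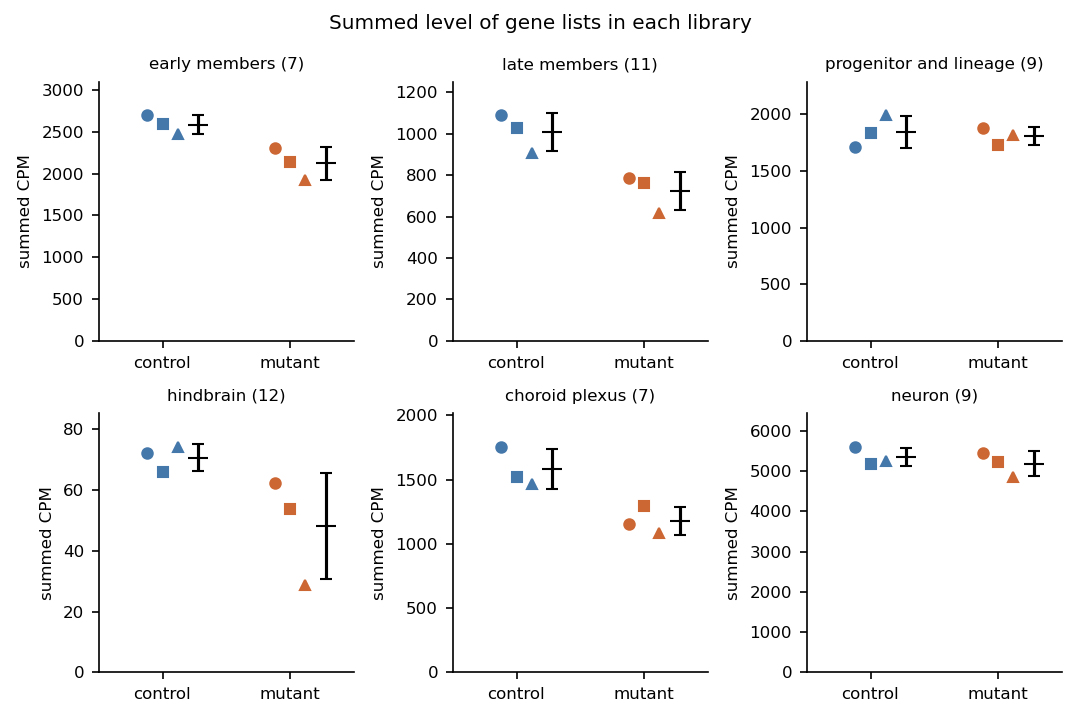
Summed CPM of the early and late myelin genes and of the progenitor, hindbrain, choroid plexus and neuron lists in each library (circle, square and triangle for replicates 1, 2 and 3), with the mean and SD (n = 3) beside them and the number of genes in brackets. The early, late, hindbrain and choroid plexus sums do not overlap between control and mutant brains, and the progenitor and neuron sums do. Ptprz1 is the largest part of the progenitor sum, and without it the progenitor groups do not overlap.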

How the data were processed

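RNA of whole brains was selected for polyA and sequenced as single reads of 50 bases. The authors trimmed reads with Trim Galore 0.5.0, removed ribosomal, mitochondrial, phiX and adapter reads with Bowtie2 2.3.4.1, aligned to GRCm38 with STAR and counted reads per gene with featureCounts (Subread 1.6.2). What the authors deposited were whole-number counts for each gene, before any normalisation. How strand and reads shared by genes were treated was not given in the sources used here. Names and coordinates came from GENCODE M21 (GRCm38), which matched 54495 of 54532 identifiers, and promoters from RefSeq (GRCm38.p6).

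Groups were compared with edgeR 4.0.16 (R 4.3.3), quasi-likelihood F test, filterByExpr and TMM, on all 6 libraries, with Benjamini-Hochberg adjustment over 16731 genes. SE values were derived from the F statistic. The fit was repeated with DESeq2 1.42.0, with limma-voom (limma 3.58.1), with RLE size factors, with no filter, with at least 1 CPM in 3 libraries, with the replicate number as a block, and with each library left out. Counts of a member in a library ran from 93 to 187299, so counting error weighs most on the low members. With 3 brains a group, p-values measure the spread between these brains. Replicate pairs differed beyond counting noise (chi-square per degree of freedom 3.42 to 12.3). The fit was tested on simulated data. Values of some single genes of the lists are not reported here. The members, their roles and timing and the other lists were chosen with earlier results of these data known. Values per library were to be given for 13 preset members, for the smallest p and the value nearest 0 in each role, and for members with an unadjusted p under 0.05.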

Additional observations from a re-analysis of the deposited data

How the results depend on the processing

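Under RLE, DESeq2, limma-voom, both filters and the replicate block, 34 of 36 members stayed negative, and 27 to 29 were lower at an unadjusted p under 0.05. Over all fits the median log2 fold change ran from -0.40 to -0.26 for all members. It ran from -0.36 to -0.20 for the early and from -0.58 to -0.38 for the late ones. The ratio of the summed CPM ran from 0.76 to 0.83. The number of members past an adjusted p of 0.05, 6, was 10 with DESeq2, 16 with no filter on low counts, and 1 to 13 without 1 library. Over all genes, those past an adjusted p of 0.05 went from 105 to 242 with no filter and to 66 to 162 without 1 library, and those past the 2-fold limit as well from 60 to 96 with no filter. The cause was not tested. Without 1 library the log2 fold change of Aspa ran from -0.074 to 0.061, negative without control replicate 3 or mutant replicate 3, and that of Qdpr from -0.17 to 0.013, positive without control replicate 1. Libraries with one replicate number had deviations that correlated at 0.104, -0.047 and 0.08. Control replicates 1 and 3 were closest to the mutant of the same number, and control replicate 2 to mutant replicate 3 (0.091). Correlations this near 0 cannot show whether a shared number is a pairing. Under the replicate block 10 members were past an adjusted p of 0.05. The members with few counts, down to 93 in a library, are the ones that depth limits most, and the genes whose exons overlap another gene remain uncertain under every setting.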

Other observations

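Among the 16 genes lower at an adjusted p under 0.05, 6 were myelin members, 37.5% of those genes and 16.7% of the members. The genes in this paragraph were chosen after their values were seen. Erbb3, a neuregulin receptor of glia, averaged 26.8 ± 2.11 CPM in the controls and 17.96 ± 2.07 CPM in the mutants (SD, n = 3). Its log2 fold change was -0.58 ± 0.11 (SE), edgeR adjusted p 0.0156. Elovl7, a fatty acid elongase, fell from 50.9 ± 1.05 to 37.2 ± 3.67 CPM, a log2 fold change of -0.45 ± 0.09, edgeR adjusted p 0.0215. Jam3, a junctional adhesion molecule, fell from 57.7 ± 2.08 to 44.4 ± 1.92 CPM, a log2 fold change of -0.38 ± 0.08, edgeR adjusted p 0.0406.

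Within the neuron list, the medium and heavy neurofilament subunits of axons also read lower. Nefm was at -0.47 ± 0.13 (SE), edgeR adjusted p 0.186, and Nefh at -0.41 ± 0.12 (SE), edgeR adjusted p 0.207, with every mutant library below every control library for both, while Nefl was at 0.08 ± 0.11 with overlapping groups. These genes were also chosen after their values were seen, and the adjusted p of none was under 0.05.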
